A study of Saccharomyces cerevisiae with 36 samples.

Results

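Carbofuran is an N-methylcarbamate insecticide and nematicide, whose known target in animals is acetylcholinesterase. The experiment described here set 3 cultures of Saccharomyces cerevisiae kept with 160 mg/L carbofuran against 3 control cultures kept without it, and the members are the 6 arrays, of 36 in the series, that carry these labels. Both groups are strain BY4741, a haploid laboratory yeast whose cells have mating type a and which is known to lack functional HIS3, LEU2, MET17 (MET15) and URA3 genes. All cultures were in exponential growth in minimal medium and were harvested after 2 h. The dose is called an IC20, an inhibitory concentration set to be equitoxic with that of 5 other pesticides: alachlor, diuron, MCPA-ME, pyrimethanil and S-metolachlor. Per the series' design text, the cultures with a pesticide and the cultures without it were run together, each pesticide against a control group of its own, in independent biological triplicate. RNA was hybridised to Affymetrix Yeast Genome 2.0 arrays, which give 1 intensity per probe set on a linear scale.

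Yeast takes up the best nitrogen and carbon sources first. While these suffice, the genes for poorer nitrogen sources are held down by nitrogen catabolite repression, and the genes for ethanol, acetate and other respired carbon sources by glucose repression. A haploid cell of mating type a makes a-factor, senses alpha-factor with the receptor Ste2, and passes the signal through a G protein and a kinase cascade to the transcription factor Ste12. Ergosterol, the sterol of the yeast membrane, is made from acetyl-CoA through mevalonate and squalene in an oxygen-demanding pathway. Ribosome production takes a large part of a growing cell's transcription and is adjusted to growth.

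The table gave 5449 genes, each measured on all 6 arrays. The array medians were 1418.5, 1359.7 and 1319.6 with carbofuran, against 1430.1, 1456.2 and 1451.7 in the controls. Between 86 and 99 genes per array lay under the floor of 32 to which intensities were raised before log2 was taken. The marker genes of the strain were checked first. URA3 gave 12.1, 12.1 and 13.1 with carbofuran, against 14.9, 14.4 and 20.7 in the controls, and MET17 gave 14.1, 17.5 and 23.9 with carbofuran, against 14, 9 and 18.5 in the controls, all under the floor. LEU2 was also dim, at 87.4, 109.8 and 162 with carbofuran, against 91.8, 97.9 and 119 in the controls. HIS3 was bright, at 7579, 5544 and 5906 with carbofuran, against 7447, 7991 and 8276 in the controls; the his3 allele of BY4741 is known as a partial deletion, and which part of the gene the probes cover was not analysed here.

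One of the carbofuran arrays, number 1, stood apart from the other two. Its median absolute distance from the mean of the controls was 0.184 on the log2 scale, against 0.307 and 0.335 for arrays 2 and 3. From the mean of the other carbofuran arrays its distance was 0.203, against 0.139 for array 2 and 0.146 for array 3. Array 1 was thus nearer to the controls than to the other cultures with carbofuran. Among the genes called below, the median share of the change seen in the other carbofuran arrays was 70.5% for array 1. For arrays 2 and 3 it was 105% and 129%. These genes were called with array 1 in the fit, which favours genes that changed in it, so 70.5% does not describe all genes. The residual SD was 0.2619 within the carbofuran group and 0.152 within the controls. No pair of arrays shared more than 2 identical values. For most lists below, the count of called genes is therefore also given without this array, and the calls that held when any 1 of the 6 arrays was left out are named or counted. Where a list median given below moved by over 1.5 times, its range over all settings run is given. The settings went from other normalizations and floors to single arrays left out and the controls of all 6 pesticides used as 1 group.

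Of the 5449 genes, 690 (12.7%) were higher and 646 (11.9%) lower with carbofuran than in the controls at an adjusted p under 0.05, by limma's moderated test on the 6 arrays, two-sided. The median log2 change over all genes, carbofuran minus control, was -0.01. The values of the groups did not overlap for 2712 genes (49.8%). Without carbofuran array 1, 1101 genes (20.2%) were higher and 1324 (24.3%) lower. The calls rest on few arrays: they numbered 79 higher and 36 lower without control array 3, 120 and 64 without control array 1, 265 and 118 without control array 2, 205 and 163 without carbofuran array 2, and 257 and 268 without carbofuran array 3. In all of these fits 78 of the 690 genes stayed higher and 33 of the 646 stayed lower. Most calls over all genes were thus lost in some fit, and such a loss is not particular to any list below. Fits to 5 arrays have fewer degrees of freedom as well as fewer values.

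The gene with the highest fold among those whose groups did not overlap was HSP12, which encodes a small membrane protein of the general stress response. It gave 13828, 8789.8 and 7499.6 with carbofuran, against 1132, 1561 and 1044 in the controls (log2 change 2.98, 95% interval 2.29 to 3.68, adjusted p = 0.00476). Every culture with carbofuran was several fold above every control, and array 1 held the highest value. CRC1, the mitochondrial carrier of acylcarnitines, gave 1106, 1173 and 1253 with carbofuran, against 186, 196 and 234 in the controls (log2 change 2.52, 95% interval 2.26 to 2.79, adjusted p = 0.000968). FIT2, a cell wall mannoprotein that takes part in siderophore iron uptake, gave 3725, 3578 and 5156 with carbofuran, against 747, 949.9 and 775 in the controls (log2 change 2.32, 95% interval 1.88 to 2.76, adjusted p = 0.00285). In both genes every carbofuran array lay above every control, as the rule for naming these genes required. HPF1, a cell wall glycoprotein, stood at 1381, 1426 and 1515 with carbofuran, against 268, 327 and 288 in the controls (log2 change 2.29, 95% interval 2.07 to 2.52, adjusted p = 0.000968). TSA2, a cytoplasmic thioredoxin peroxidase, had 1293, 1047 and 1242 with carbofuran, against 229.7, 318 and 275 in the controls (log2 change 2.13, 95% interval 1.76 to 2.50, adjusted p = 0.00223). The rest of the 12 genes highest by fold belong to the groups described below: ADH2, ALD4, DAL3, PUT4, DAL5, HES1 and SUL1.

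At the other end, AGA2, BAR1, ASG7 and FUS1, all mating genes, were among the 12 genes lowest by fold, along with the cell cycle genes SWI5 and SPO12, which acts in mitotic exit; the call of SPO12 was lost without 4 of the 6 arrays in turn and that of SWI5 without 5. YDL241W, a gene of unknown function, gave 380.5, 399 and 508 with carbofuran, against 1348, 1749.6 and 1608 in the controls (log2 change -1.87, 95% interval -2.25 to -1.49, adjusted p = 0.00345). PHO3, a constitutively expressed acid phosphatase, gave 2235, 2974 and 2744 with carbofuran, against 7044, 7644 and 8065 in the controls (log2 change -1.52, 95% interval -1.83 to -1.21, adjusted p = 0.00343). WSC4, of the family of cell wall stress sensors, gave 156, 174 and 239 with carbofuran, against 519, 562 and 691 in the controls, with a log2 change of -1.65; this call was lost without control array 3. Its change with the other 5 pesticides ranged from -3.75 to -0.61 (difference 0.08, SE 0.33, adjusted p = 0.861). The remaining genes of the 12 were RHO5 (-1.54), a small GTPase, HSP42 (-1.502), a small heat shock protein, and YBL086C (-1.54), of unknown function. Each of these 3 was lost from the calls when single arrays were left out.

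**Figure D1:**
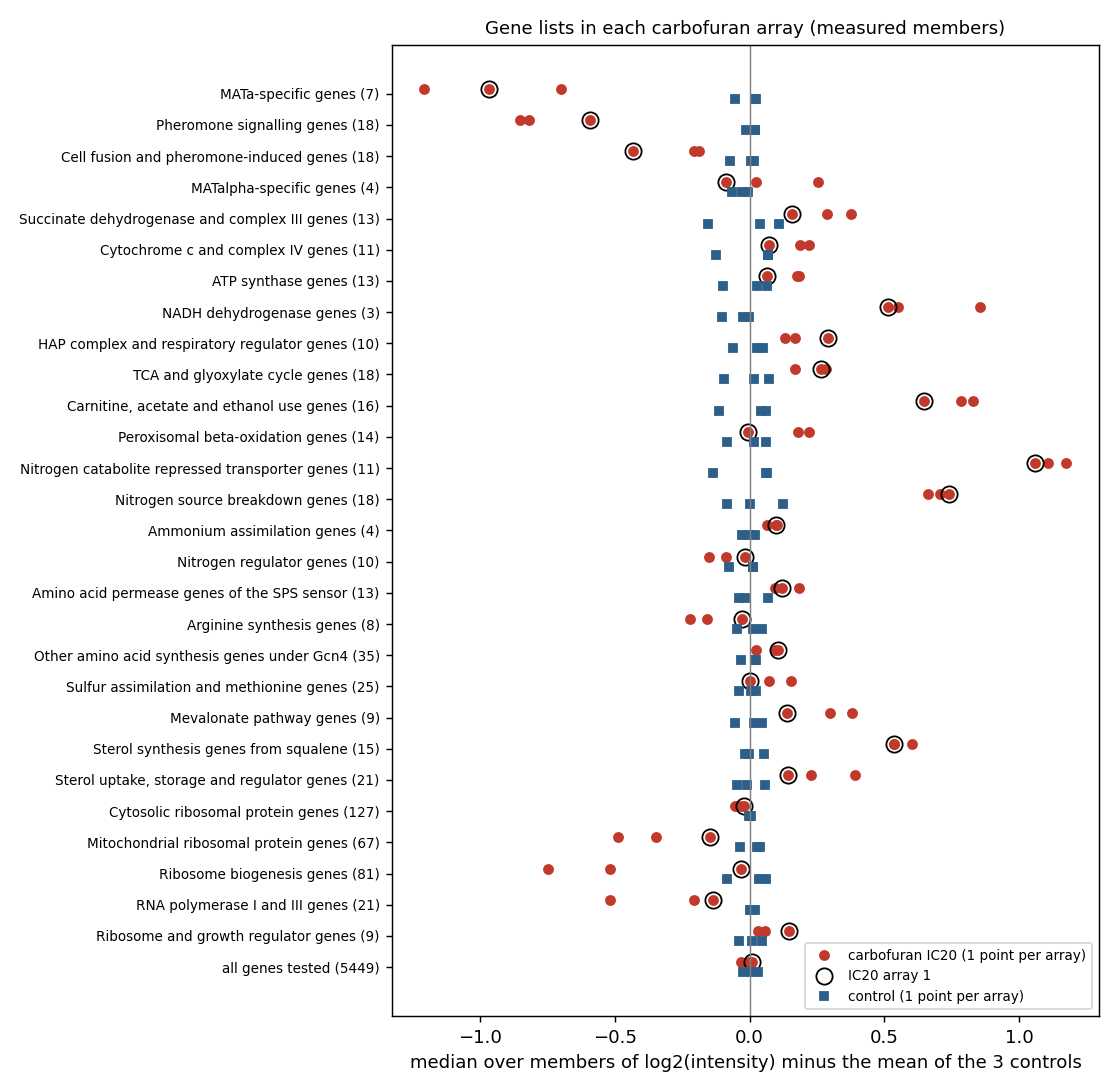
Median over the members of each list of log2 intensity minus the mean of the 3 controls, 1 point per array, for carbofuran IC20 (red circles, array 1 ringed) and control (blue squares); the number of measured members stands after each name. The mating lists of a cells lie left of 0 and the nitrogen transporter, ethanol and sterol lists right of 0 in all 3 carbofuran arrays, while the ribosome biogenesis list lies near 0 in array 1 (-0.03) and lower in arrays 2 and 3.

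Most of the genes that only a cells express fell with carbofuran. Of 7 such genes, 6 were lower and none was higher, beside 11.9% and 12.7% of all genes, and the median log2 change was -0.94. The members' medians per array were -0.97, -0.70 and -1.21 with carbofuran, against -0.05, 0.02 and 0.02 in the controls. BAR1, the secreted protease that breaks down alpha-factor, gave 982, 1278 and 1183 with carbofuran, against 4322, 4194 and 3990.5 in the controls (log2 change -1.87, 95% interval -2.14 to -1.59, adjusted p = 0.00166). AGA2, the binding subunit of the a-cell agglutinin, gave 1608, 2009 and 1886 with carbofuran, against 6867, 7584 and 7137 in the controls (log2 change -1.98, 95% interval -2.22 to -1.73, adjusted p = 0.00137). ASG7, an inhibitor of G protein signalling in newly formed zygotes, gave 205, 231 and 231 with carbofuran, against 757, 846 and 776 in the controls (log2 change -1.84, 95% interval -2.03 to -1.64, adjusted p = 0.000968). In these 3 genes the brightest carbofuran array was below the dimmest control by more than the range within either group.

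Receptor and pheromone genes had smaller changes. STE2, the alpha-factor receptor, gave 8519, 9540.0 and 9766 with carbofuran, against 15329, 15434 and 15750.4 in the controls (log2 change -0.74, 95% interval -0.91 to -0.57, adjusted p = 0.00436). MFA1, 1 of the a-factor genes, gave 10487, 11329 and 11299 with carbofuran, against 16702, 17903 and 17726 in the controls (log2 change -0.66, 95% interval -0.81 to -0.51, adjusted p = 0.00412). The other a-factor gene, MFA2, did not pass the test, with 19888, 21168 and 21822 with carbofuran, against 21504, 22613 and 22818 in the controls (log2 change -0.09, 95% interval -0.24 to 0.05, adjusted p = 0.271); its groups overlapped. Its 95% interval leaves room for a small change in either direction. STE6, the transporter that exports a-factor, gave 3047, 3794 and 2579 with carbofuran, against 6121, 5623 and 6115 in the controls (log2 change -0.94, 95% interval -1.31 to -0.57, adjusted p = 0.0175). The call of STE6 was lost when any 1 of the controls was left out, and those of STE2, MFA1, BAR1, AGA2 and ASG7 held in every fit that left out 1 array.

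In the signalling list, 11 of 18 genes fell and 1 rose, beside 11.9% and 12.7% of all genes. The median was -0.74 and ranged over -1.003 to -0.26, being nearest to 0 with the controls of all 6 pesticides as 1 group and farthest from it without the dimmest genes. The 11 that fell run from the G protein to the nucleus. They include the G protein subunits GPA1 (-1.37) and STE4 (-0.76), the mitogen-activated kinases FUS3 (-1.06) and KSS1 (-0.37), and STE12 with both of its repressors, DIG1 (-1.18) and DIG2 (-0.72). STE12, the transcription factor of the pheromone response, gave 1298, 1200.0 and 1160.4 with carbofuran, against 2502, 2555 and 2311 in the controls (log2 change -1.01, 95% interval -1.18 to -0.84, adjusted p = 0.0022). FAR1, which arrests the cell cycle in response to pheromone, gave 865, 1005 and 891 with carbofuran, against 2591, 2420.4 and 2438 in the controls (log2 change -1.43, 95% interval -1.62 to -1.25, adjusted p = 0.00139). SST2, the regulator that turns the G protein signal off, gave 494, 689.7 and 621 with carbofuran, against 1804, 1607 and 1346 in the controls (log2 change -1.40, 95% interval -1.82 to -0.98, adjusted p = 0.00981). Genes of activators and of inhibitors of the pathway were thus both lower, with groups that did not overlap, as was so for 49.8% of all genes. KAR4 (-0.996) and TEC1 (-1.48), which encode partners of Ste12 at other promoters, fell as well. STE5, the scaffold of the kinase cascade, was the member that rose, with 2183, 2547 and 2278 with carbofuran, against 1648, 1648 and 1606 in the controls (log2 change 0.51, 95% interval 0.33 to 0.69, adjusted p = 0.014). In the fit without carbofuran array 1, 6 of 7 a-specific genes, 13 of 18 signalling genes and 5 of 18 fusion genes were called lower. The share over all genes was 24.3%, so the fusion count is near the background. Calls of FUS3, STE12, FAR1, SST2, KAR4 and TEC1 held when any 1 array was left out; STE4 was lost without control array 3, STE5 without control array 1 or 3, GPA1 without either of these or without carbofuran array 2 or 3, and KSS1, DIG1 and DIG2 without most single arrays.

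Genes of agglutination, cell fusion and nuclear fusion were mixed. Of 18, 5 were lower and 1 higher, beside 11.9% and 12.7% of all genes. The median was -0.27, and 1 call, that of FUS1, held when any 1 array was left out. FUS1, a membrane protein needed for fusion and the usual reporter of the pheromone pathway, gave 431, 542 and 474 with carbofuran, against 1624, 1611 and 1503 in the controls (log2 change -1.72, 95% interval -1.96 to -1.47, adjusted p = 0.00154). AGA1, the anchor subunit of the a-agglutinin, gave 933, 1219 and 1202 with carbofuran, against 1788, 1951 and 1723 in the controls (log2 change -0.71, 95% interval -1.02 to -0.40, adjusted p = 0.0213), and lost its call when any 1 control was left out. PRM4, a membrane protein gene, rose, with 3669, 3241 and 3857 with carbofuran, against 1744, 2097 and 2137 in the controls (log2 change 0.85, 95% interval 0.57 to 1.13, adjusted p = 0.0123), a call lost without control array 3. The genes of alpha cells gave no call among 4 measured. MF(ALPHA)1, the main alpha-factor gene, was dim, at 24.7, 29.9 and 30.7 with carbofuran, against 28.7, 33.8 and 41.2 in the controls, and STE3, the a-factor receptor of alpha cells, gave 116, 137 and 163 with carbofuran, against 111, 136 and 111 in the controls. SAG1, the alpha-agglutinin, was not at background, at 676, 889 and 805 with carbofuran, against 636, 675 and 642 in the controls, and it passed the test as higher in the fit without carbofuran array 1 (log2 change 0.38, adjusted p = 0.0156).

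Set against the other 5 pesticides in a fit of all 36 arrays, the change with carbofuran was lower for 7 of the 7 a-specific genes and 10 of the 18 signalling genes. Over all genes, 22.9% were lower and 18.5% higher than that mean. The median of the a-specific genes ranged from -0.14 to 0.22 with the other pesticides. For BAR1 the change with each of them lay in -0.33 to 0.23 (difference -1.87, SE 0.13, adjusted p = 3.34e-11), and for FUS1 in -0.49 to 0.50 (difference -1.58, SE 0.18, adjusted p = 2.95e-07). MFA2, which was not called against its own control, had a small difference here (difference -0.13, SE 0.05, adjusted p = 0.0474).

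**Figure D2:**
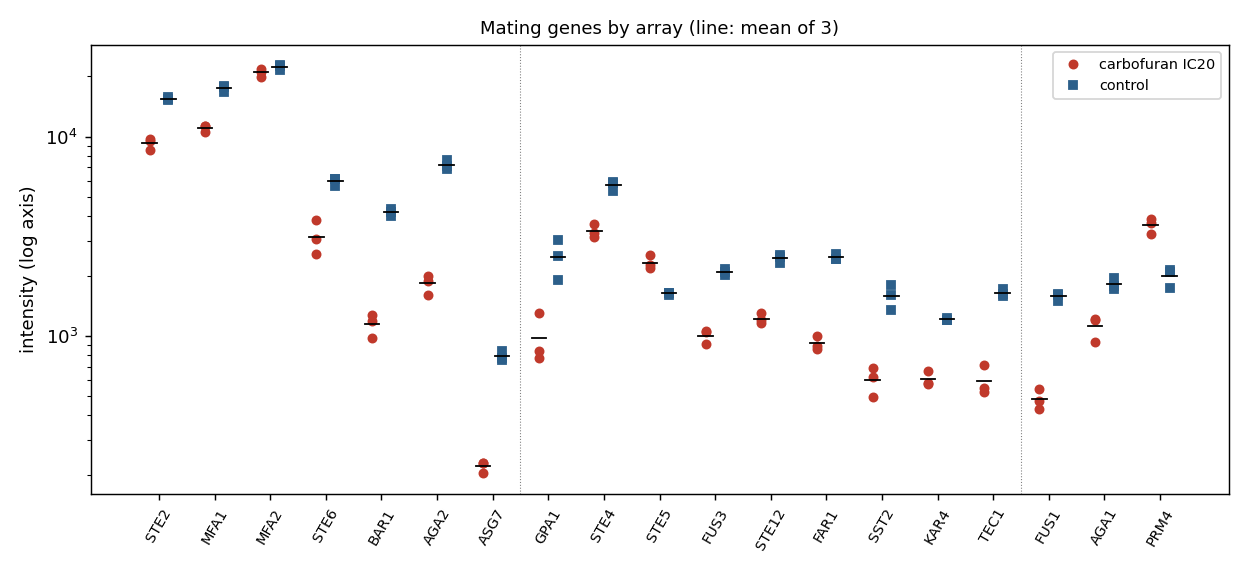
Intensity (log axis) of mating genes in each array, carbofuran IC20 in red left of control in blue, with a line at the mean of 3; dotted lines part a-specific genes, signalling genes and genes of agglutination and fusion. All genes shown except MFA2, STE5 and PRM4 lie lower in every carbofuran array than in every control; STE5 and PRM4 lie higher, and the MFA2 groups overlap.

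Several mating genes, FAR1 and KAR4 among them, vary through the cell cycle, and the cell cycle lists also held calls. Of 19 genes that peak in G2/M or M/G1, 6 fell and none rose, beside 11.9% and 12.7% of all genes. The median was -0.23 and ranged over -0.64 to -0.15, the lowest being with the controls of all 6 pesticides as 1 group. CDC20, the activator of the anaphase-promoting complex, gave 662, 612 and 402 with carbofuran, against 1371, 1236 and 1325 in the controls (log2 change -1.26, 95% interval -1.77 to -0.76, adjusted p = 0.0177). SWI5, a transcription factor of the M/G1 boundary, gave 574, 357 and 298 with carbofuran, against 1295, 936 and 1092 in the controls (log2 change -1.48, 95% interval -2.16 to -0.80, adjusted p = 0.0235). CLB2, the main mitotic cyclin, gave 436, 479.9 and 450.4 with carbofuran, against 793, 840.3 and 650.3 in the controls (log2 change -0.73, 95% interval -1.01 to -0.46, adjusted p = 0.0163). Groups did not overlap for these 3 genes, as was so for 49.8% of all genes. CDC5, HOF1 and AMN1 were the other members called, at -0.74, -1.21 and -0.50. Of 24 G1/S genes, 2 fell, the cyclin genes PCL1 (-1.25) and CLB6 (-0.64), and 4 rose, which were the replication protein A genes RFA1, RFA2 and RFA3 and the primase subunit PRI1, at 0.30 to 0.39. Without carbofuran array 1, 8 of the G2/M list and 7 of the G1/S list were lower and 3 of the G1/S list higher, beside 24.3% lower and 20.2% higher over all genes, so the G1/S counts are near or below those shares. None of the calls in these lists held in every fit that left out 1 array. In bulk RNA, fewer cells at a stage and less RNA per cell at that stage cannot be told apart.

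Genes for using ethanol, acetate and carnitine rose together. Of 16 measured, 12 were higher and none lower, beside 12.7% and 11.9% of all genes. The median was 0.71 (0.62 to 1.07 over the settings), and all 16 had a positive log2 change. ADH2, the alcohol dehydrogenase that oxidises ethanol, gave 1937, 1967 and 2212 with carbofuran, against 403, 431 and 395 in the controls (log2 change 2.31, 95% interval 2.13 to 2.50, adjusted p = 0.000968). ALD4, the mitochondrial aldehyde dehydrogenase, gave 14988, 15968 and 15948 with carbofuran, against 3431, 3858 and 3936 in the controls (log2 change 2.06, 95% interval 1.88 to 2.25, adjusted p = 0.000968). ALD6, the cytosolic one, was already bright and gave 28823, 28455 and 28165 with carbofuran, against 12862, 12954 and 13515 in the controls (log2 change 1.12, 95% interval 1.004 to 1.23, adjusted p = 0.000968). In each, the groups were separated by far more than their ranges. PCK1, the phosphoenolpyruvate carboxykinase of gluconeogenesis, gave 680.0, 759 and 813 with carbofuran, against 291, 322 and 286 in the controls (log2 change 1.32, 95% interval 1.10 to 1.55, adjusted p = 0.0022). YAT2, a carnitine acetyltransferase, gave 2328, 2239 and 2230.3 with carbofuran, against 823, 971 and 1066 in the controls (log2 change 1.26, 95% interval 0.997 to 1.52, adjusted p = 0.00351). The other members called were AGP2 (0.90), a carnitine transporter, DLD1 (0.54) and CYB2 (0.71), lactate dehydrogenases, the lactate and acetate transporters JEN1 (0.63) and ADY2 (0.71), and ACH1 (0.43), a mitochondrial CoA transferase for acetate.

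In that list 4 members did not pass the test: CAT2 (0.49), FBP1 (0.50), ACS1 (0.28) and YAT1 (0.03). ACS1, the acetyl-CoA synthetase of respiring cells, gave 1296, 1538 and 1640.2 with carbofuran, against 1244, 1255 and 1176 in the controls (log2 change 0.28, 95% interval 0.03 to 0.53, adjusted p = 0.0895). FBP1, the fructose bisphosphatase of gluconeogenesis, gave 178, 273 and 264 with carbofuran, against 154, 173 and 170.3 in the controls (log2 change 0.50, 95% interval 0.04 to 0.95, adjusted p = 0.0927). Neither interval excludes a change of moderate size. The calls of CRC1, ADH2, ALD4, ALD6, PCK1 and YAT2 held in all fits that left out 1 array, and those of the other 6 did not. Without carbofuran array 1 the list had 14 higher, beside 20.2% of all genes.

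Of the regulators of respiration and of these genes, 4 were called, all higher. CAT8, which turns on gluconeogenic genes, gave 205, 184 and 198 with carbofuran, against 92, 121 and 120.0 in the controls (log2 change 0.83, 95% interval 0.51 to 1.14, adjusted p = 0.0164). ADR1, the activator of ADH2 and of peroxisomal genes, gave 1473, 1903 and 1961 with carbofuran, against 712, 822 and 774 in the controls (log2 change 1.20, 95% interval 0.87 to 1.53, adjusted p = 0.00764). SIP4, a related activator, was dim, at 143, 132 and 173 with carbofuran, against 50.3, 85.6 and 64.5 in the controls (log2 change 1.19, 95% interval 0.63 to 1.74, adjusted p = 0.0236). HAP1, the haem-responsive activator, gave 2614, 2716 and 2691 with carbofuran, against 1765, 1736 and 1481 in the controls (log2 change 0.69, 95% interval 0.49 to 0.90, adjusted p = 0.00974). These were the calls among 10 regulators, beside 12.7% higher over all genes, and the median of the list was 0.14. That median ranged over -0.10 to 0.46: it turned sign without the dimmest 25% of genes and was highest with the controls of all 6 pesticides as 1 group. Without carbofuran array 1, 5 regulators were higher and 2 lower, beside 20.2% and 24.3% of all genes. The call of HAP1 held when any 1 array was left out, ADR1 was lost without control array 3, CAT8 without control array 3 or carbofuran array 3, and SIP4 without 4 of the 6 arrays in turn.

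The respiratory chain itself showed small differences. Among 13 genes of succinate dehydrogenase and complex III, 2 rose, SDH3 (0.54) and RIP1 (0.53), with a list median of 0.28 (0.16 to 0.36 over the settings). That share is near the 12.7% of all genes. The medians per array were 0.16, 0.29 and 0.38 with carbofuran, against -0.16, 0.11 and 0.04 in the controls, so the controls also differed among themselves. None of the 11 genes of cytochrome c and complex IV rose and 1 fell, beside 12.7% and 11.9% of all genes. CYC7, the minor cytochrome c isoform, fell, with 121, 98.2 and 102 with carbofuran, against 170.4, 215 and 231 in the controls (log2 change -0.93, 95% interval -1.30 to -0.57, adjusted p = 0.0169). ATP synthase had 3 higher of 13, at 0.28 to 0.41, beside 12.7% of all genes. Its medians per array were 0.06, 0.18 and 0.18 with carbofuran, against -0.10, 0.07 and 0.03 in the controls, so carbofuran array 1 lay within the range of the controls. Of the 3 NADH dehydrogenase genes, NDI1 (0.70) and NDE2 (0.65) rose, beside 12.7% of all genes. The median of the 3 was 0.65 and ranged over 0.24 to 0.74, being lowest with a floor of 100. NDI1, the internal mitochondrial enzyme, gave 1012, 1095 and 1237 with carbofuran, against 637, 766 and 657 in the controls, with no overlap, as for 49.8% of all genes. None of the calls in these 4 lists held in every fit that left out 1 array. Without carbofuran array 1 the calls of higher genes were 6 for succinate dehydrogenase and complex III, 3 for cytochrome c and complex IV, 4 for ATP synthase and 3 for NADH dehydrogenase, beside 20.2% of all genes. The shares for complex IV and ATP synthase are near that. In that fit 1 gene of succinate dehydrogenase and complex III and 2 of cytochrome c and complex IV were lower, beside 24.3% of all genes.

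In the tricarboxylic acid and glyoxylate cycles, 8 of 18 genes rose and 2 fell (median 0.19, 0.11 to 0.27 over the settings). Over all genes 12.7% rose and 11.9% fell, so the share that fell is near the background. Without carbofuran array 1, 8 were higher and 3 lower, beside 20.2% and 24.3% of all genes. CIT3, the minor mitochondrial citrate synthase, gave 375, 344 and 384 with carbofuran, against 134, 151 and 162 in the controls (log2 change 1.30, 95% interval 1.08 to 1.53, adjusted p = 0.0022). MLS1, the malate synthase of the glyoxylate cycle, was dim in the controls, with 139, 109 and 114 with carbofuran, against 53.6, 58.9 and 57.3 in the controls (log2 change 1.08, 95% interval 0.81 to 1.35, adjusted p = 0.00589), a call lost with a floor of 100. ICL1, the isocitrate lyase that supplies glyoxylate to Mls1, was lower, with 569, 658 and 535 with carbofuran, against 866, 811 and 739.6 in the controls (log2 change -0.46, 95% interval -0.72 to -0.20, adjusted p = 0.0338). The enzymes on either side of glyoxylate thus had opposite signs, though the ICL1 call was lost without most single arrays and its sign turned, to 0.64, when the controls of all 6 pesticides were used as 1 group. The bright genes CIT1, IDH1, IDH2, LSC1, ACO1 and CIT2 rose by small amounts, from 0.32 for CIT2 to 0.59 for IDH1; ACO1 also turned sign with the pooled controls, to -0.14. LPD1, the dihydrolipoamide dehydrogenase shared by several complexes, fell (-0.48). Of the 10 calls, those of CIT3 and MLS1 held when any 1 array was left out. CIT1, CIT2, IDH2 and LPD1 were lost without 5 of the arrays in turn, ACO1 without 4, LSC1 without 3 and IDH1 without 2. In peroxisomal beta-oxidation, 3 of 14 rose, beside 12.7% of all genes. Without carbofuran array 1, 5 were higher and 1 lower, beside 20.2% and 24.3% of all genes. POX1, the acyl-CoA oxidase that starts the spiral, gave 104, 126 and 124 with carbofuran, against 26.4, 35.5 and 33.9 in the controls (log2 change 1.80, 95% interval 1.57 to 2.04, adjusted p = 0.00139), with controls near the floor. This call too was lost with a floor of 100. PEX11 (0.75) and FAA1 (0.43) were the others, each lost without 5 of the arrays in turn, while POX1 held.

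The ethanol and acetate genes were among those where carbofuran differed from the other pesticides. Compared with the mean change with these, 11 of 16 were higher and none lower, beside 18.5% and 22.9% of all genes. The list's median ranged from -0.20 to 0.21 with the other 5. The change of ALD4 lay in -1.20 to -0.22 with the others (difference 2.86, SE 0.24, adjusted p = 1.84e-09), and that of ADH2 in -0.64 to 0.12 (difference 2.49, SE 0.23, adjusted p = 9.38e-09). CRC1 had values of 0.99 to 1.86 with the others (difference 1.20, SE 0.17, adjusted p = 1.1e-05).

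Nitrogen catabolite repressed transporter genes rose as a group. Of 11, 9 were higher and none lower, beside 12.7% and 11.9% of all genes. The median was 1.09, and 8 of the calls held when any 1 array was left out. GAP1, the general amino acid permease, gave 12972, 13044 and 12646 with carbofuran, against 5697, 6331 and 6157 in the controls (log2 change 1.09, 95% interval 0.94 to 1.23, adjusted p = 0.0014). MEP2, the ammonium permease that also acts as a sensor, gave 16308, 17240.0 and 17127 with carbofuran, against 6648, 7669.7 and 8559 in the controls (log2 change 1.15, 95% interval 0.90 to 1.41, adjusted p = 0.00412). DAL5, the allantoate permease, gave 3004, 3369.6 and 3492 with carbofuran, against 728, 857 and 949 in the controls (log2 change 1.97, 95% interval 1.67 to 2.26, adjusted p = 0.00176). For all 3 genes the dimmest carbofuran array was above the brightest control, and groups did not overlap for 49.8% of all genes. PUT4, the proline permease, gave 810.2, 709 and 907 with carbofuran, against 168, 226 and 225 in the controls (log2 change 1.98, 95% interval 1.58 to 2.37, adjusted p = 0.00335). DUR3, a urea and polyamine permease, gave 4936, 5321 and 5463 with carbofuran, against 2153, 2348 and 2624 in the controls (log2 change 1.15, 95% interval 0.92 to 1.37, adjusted p = 0.00329). OPT2, of the oligopeptide transporter family, gave 5282, 6379.7 and 6004 with carbofuran, against 2084, 2165 and 1979 in the controls (log2 change 1.501, 95% interval 1.28 to 1.72, adjusted p = 0.00164). MEP1 (0.96), UGA4 (0.97), the permease for gamma-aminobutyrate, and CAN1 (0.71), the arginine permease, rose as well, and UGA4 alone of the 9 was lost when some single arrays were left out. MEP3, the third ammonium permease, was at 5390.4, 6283 and 5933 with carbofuran, against 6179.6, 6736 and 6366 in the controls (log2 change -0.13, 95% interval -0.32 to 0.06, adjusted p = 0.225) and its groups overlapped. DAL4, the allantoin permease, missed the threshold (0.49, adjusted p = 0.0548).

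Genes that break down nitrogen sources followed, with 14 of 18 higher and none lower, beside 12.7% and 11.9% of all genes. Their median was 0.68. DAL3, the ureidoglycolate lyase of allantoin breakdown, gave 1302, 1387 and 1182 with carbofuran, against 276, 331 and 308 in the controls (log2 change 2.08, 95% interval 1.84 to 2.32, adjusted p = 0.00125). The other allantoin genes DAL1, DAL2 and DAL7 rose by 0.75, 0.65 and 0.80. CAR2, the ornithine transaminase of arginine breakdown, gave 1364, 1222 and 1461 with carbofuran, against 371, 426 and 378 in the controls (log2 change 1.78, 95% interval 1.55 to 2.02, adjusted p = 0.00139). CAR1, the arginase that acts before it, was bright and rose by only 0.33. ARO9, an aromatic aminotransferase, gave 399, 429.8 and 419 with carbofuran, against 193, 209 and 167 in the controls (log2 change 1.14, 95% interval 0.90 to 1.38, adjusted p = 0.00354). These groups did not overlap, as was so for 49.8% of all genes. PUT1, the proline oxidase, gave 2673, 1731 and 2750.5 with carbofuran, against 677, 1252 and 935 in the controls (log2 change 1.34, 95% interval 0.60 to 2.07, adjusted p = 0.0321), with the widest interval of the genes called here, and its call was lost when any 1 array was left out other than carbofuran array 1. Others called were UGA1 (0.89), GDH2 (0.67), the vacuolar peptidase genes CPS1 (0.74), APE1 (0.69) and PEP4 (0.35), and PUT2 (0.20). Values without a call were those of UGA2 (0.48), ARO10 (0.64), PRB1 (0.24) and DCG1 (-0.14). Of the 14 calls, 5 held when any 1 array was left out: those of DAL1, DAL3, DAL7, CAR2 and ARO9. With carbofuran array 1 left out, 10 transporter genes and 15 breakdown genes were higher, beside 20.2% of all genes.

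Among 10 regulators of nitrogen genes, 2 rose and 2 fell, beside 12.7% and 11.9% of all genes. DAL80, a GATA factor that represses these genes and is itself under nitrogen control, gave 150.1, 141 and 147 with carbofuran, against 59.2, 61 and 74.4 in the controls (log2 change 1.18, 95% interval 0.93 to 1.43, adjusted p = 0.00367). GLN3, the main GATA activator, gave 623, 727 and 747 with carbofuran, against 401, 501 and 445 in the controls (log2 change 0.64, 95% interval 0.35 to 0.93, adjusted p = 0.0218). GZF3, a repressor, and UGA3, an activator of the gamma-aminobutyrate genes, fell by small amounts (-0.39 and -0.20); GZF3 turned sign, to 0.20, with the controls of all pesticides as 1 group. URE2, which keeps Gln3 in the cytoplasm, was at 3492, 2715 and 2222 with carbofuran, against 4041, 3978 and 4141 in the controls (log2 change -0.55, 95% interval -0.98 to -0.13, adjusted p = 0.0631), without overlap but without a call. The calls of GLN3, GZF3 and UGA3 were lost without 4 or 5 of the single arrays, and that of DAL80 held. Without carbofuran array 1, 2 regulators were higher and 4 lower, beside 20.2% and 24.3% of all genes. The share that was higher is near the background.

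Other amino acid genes had fewer calls. Of 13 permease genes under the amino acid sensor of the plasma membrane, 5 rose, beside 12.7% of all genes. DIP5, the permease for acidic amino acids, gave 15229.9, 16899 and 14341 with carbofuran, against 7073, 7770.3 and 7373 in the controls (log2 change 1.06, 95% interval 0.86 to 1.26, adjusted p = 0.00285). The others were PTR2 (0.73), TAT2 (0.42), AGP1 (0.29) and GNP1 (0.22). The call of DIP5 held when any 1 array was left out and the other 4 did not. Without carbofuran array 1, 6 permease genes were higher and 2 lower, beside 20.2% and 24.3% of all genes. No gene of 8 for arginine synthesis was called (median -0.13, -0.49 to -0.05 over the settings). With carbofuran array 1 left out, 4 of them were lower and 1 higher, beside 24.3% and 20.2% of all genes. Among 35 other synthesis genes under Gcn4, 6 rose and 1 fell, beside 12.7% and 11.9% of all genes, so the share that rose is near the background. None of these calls held in every fit that left out 1 array. The largest of the changes was that of BAT2 (0.53), the cytosolic branched-chain aminotransferase. Ammonium assimilation had GDH1 (0.19) and GDH3 (0.43), both glutamate dehydrogenases, as its calls among 4, beside 12.7% higher over all genes. In sulfur assimilation, 7 of 25 rose and 1 fell, beside 12.7% and 11.9% of all genes. Without carbofuran array 1, 8 were higher and 3 lower, beside 20.2% and 24.3% of all genes. The call of SUL1 held when any 1 array was left out, and those of the other 7 did not. SUL1, a sulfate permease, gave 259, 345 and 277 with carbofuran, against 80.6, 82.8 and 77.5 in the controls (log2 change 1.86, 95% interval 1.56 to 2.16, adjusted p = 0.00189), and with the other pesticides its change lay in -0.43 to 1.09 (difference 1.67, SE 0.12, adjusted p = 1.15e-10). MET28, a factor in sulfur regulation, gave 0.65 with carbofuran and 1.59 to 2.67 with the others. Against the mean of the other pesticides, 4 of the 25 sulfur genes had a higher change with carbofuran and 9 a lower one. Over all genes these shares were 18.5% and 22.9%.

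Against the other 5 pesticides, 8 of 11 transporter genes and 10 of 18 breakdown genes had a higher change with carbofuran, and 1 breakdown gene, DCG1, had a lower one. Over all genes, 18.5% had a higher change and 22.9% a lower one. The list medians with the other pesticides ranged from -0.08 to 0.40 for the transporters and from 0.12 to 0.58 for breakdown. CAR2 had a negative change with every other pesticide, in -2.20 to -0.76 (difference 3.10, SE 0.50, adjusted p = 3.73e-05). PUT4 lay in -0.59 to 0.33 (difference 1.96, SE 0.18, adjusted p = 9.25e-09). MEP2 was not distinguished from the mean of the others (difference 0.25, SE 0.17, adjusted p = 0.242), nor was GDH2 (difference -0.07, SE 0.16, adjusted p = 0.764).

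Ergosterol pathway genes rose along nearly the whole length from squalene. Of 15 genes from squalene synthase onward, 14 were higher and none lower, beside 12.7% and 11.9% of all genes. The median was 0.59, and the groups did not overlap for any of the 15, beside 49.8% of all genes. ERG3, the C-5 desaturase, gave 18315, 19282 and 19786 with carbofuran, against 7978, 8357 and 7531 in the controls (log2 change 1.27, 95% interval 1.11 to 1.42, adjusted p = 0.00137). ERG5, the C-22 desaturase, gave 8369, 9470.5 and 9254 with carbofuran, against 4339, 4463 and 4388 in the controls (log2 change 1.04, 95% interval 0.88 to 1.20, adjusted p = 0.00176). ERG4, the reductase of the last step, gave 15629, 16279 and 16837 with carbofuran, against 9256, 10222 and 9212 in the controls (log2 change 0.77, 95% interval 0.60 to 0.93, adjusted p = 0.00367). The late desaturases and the last reductase stood clear of the controls on every array. ERG25, ERG26 and ERG27, which together remove the methyl groups at C-4, rose by 0.76, 0.96 and 0.51, and their scaffold ERG28 by 0.70. ERG25 gave 24209, 24968 and 24792 with carbofuran, against 14406, 15126 and 14256 in the controls. ERG24, the C-14 reductase, gave 8122, 8149 and 9569.9 with carbofuran, against 4683, 5361 and 4945 in the controls (log2 change 0.78, 95% interval 0.55 to 1.02, adjusted p = 0.00974).

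The other members had log2 changes of 0.31 to 0.59. ERG11, the C-14 demethylase that azole fungicides inhibit, gave 22798, 23761 and 22827 with carbofuran, against 18538, 18407 and 18556 in the controls (log2 change 0.32, 95% interval 0.21 to 0.43, adjusted p = 0.0139). NCP1, its electron donor, rose by 0.36. ERG9, the squalene synthase, ERG1, the squalene epoxidase, and ERG7, the lanosterol synthase, rose by 0.42, 0.42 and 0.59. ERG2, the C-8 isomerase, rose by 0.43. ERG6, the C-24 methyltransferase, was at 16422, 14259.6 and 13095 with carbofuran, against 11563, 11266 and 12287 in the controls (log2 change 0.31, 95% interval 0.07 to 0.56, adjusted p = 0.0656); its groups did not overlap but the test was not passed. Calls of ERG3, ERG4, ERG5, ERG7, ERG25 and ERG26 held when any 1 array was left out; ERG1, ERG24 and ERG27 were lost without control array 3, NCP1 and ERG28 without control array 1 or 3, and ERG9, ERG11 and ERG2 without 3 or 4 of the arrays in turn. The count without carbofuran array 1 was again 14 higher and 0 lower, beside 20.2% and 24.3% of all genes.

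Before squalene a smaller share of genes was called. Of 9 mevalonate pathway genes, 3 rose, beside 12.7% of all genes. They were ERG10 (0.35), ERG12 (0.62) and MVD1 (0.52), none of them called in every fit that left out 1 array. HMG1 and HMG2, the reductases at the regulated step, gave 0.21 (95% interval 0.01 to 0.40) and 0.33 (95% interval 0.08 to 0.58) without a call. IDI1 (-0.33) and ERG20 (-0.28), which also serve other isoprenoids, had negative values and no call. Without carbofuran array 1 the list had 6 higher and 2 lower, beside 20.2% and 24.3% of all genes, so the share that was lower is near the background.

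**Figure D3:**
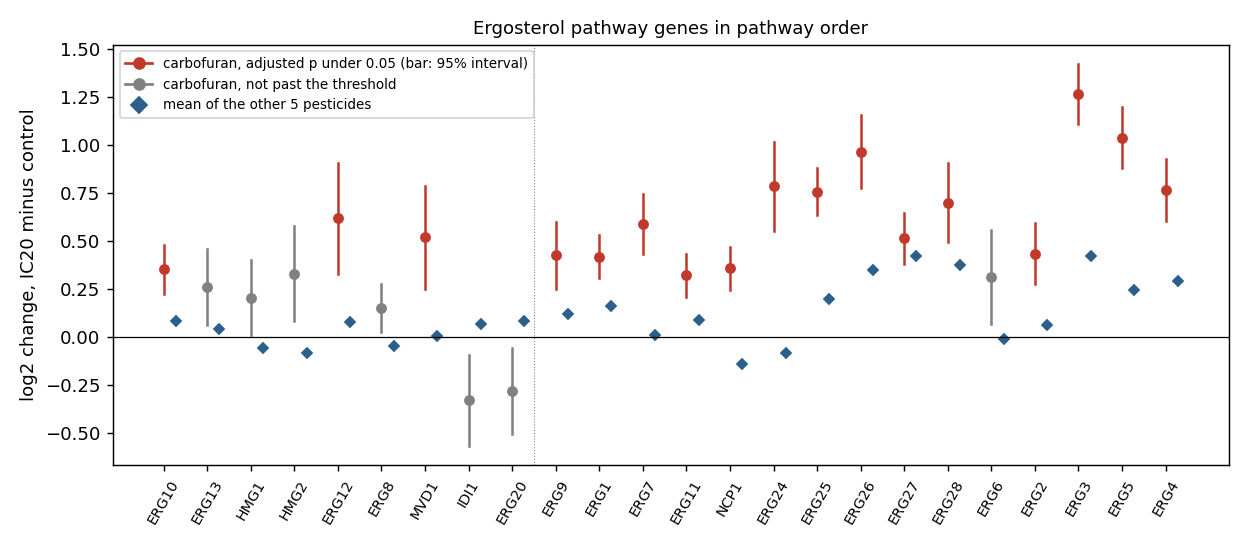
Log2 change with carbofuran (circles with 95% interval, red where the adjusted p is under 0.05) and mean log2 change with the other 5 pesticides (blue diamonds) for ergosterol pathway genes in pathway order; the dotted line marks squalene synthase, ERG9, as the first gene on its right. From ERG9 on, every gene but ERG6 is past the threshold, and the late genes ERG26, ERG3 and ERG5 lie highest, at 0.96, 1.27 and 1.04.

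Genes of sterol uptake, storage and control gave 6 higher and none lower among 21, beside 12.7% and 11.9% of all genes. The median was 0.26 (0.16 to 0.35 over the settings). HES1, a sterol-binding protein of the oxysterol-binding family, gave 1072, 577 and 936 with carbofuran, against 239, 205 and 238 in the controls (log2 change 1.88, 95% interval 1.26 to 2.50, adjusted p = 0.0125). ATF2, an alcohol acetyltransferase that also acetylates sterols, gave 1851, 2486 and 2440.2 with carbofuran, against 1151, 1083 and 1107 in the controls (log2 change 1.01, 95% interval 0.69 to 1.33, adjusted p = 0.0116). PDR11, an ABC transporter for sterol uptake, gave 436, 572 and 639 with carbofuran, against 268, 321 and 269.7 in the controls (log2 change 0.93, 95% interval 0.51 to 1.34, adjusted p = 0.0218). NCR1 (0.60), ARE1 (0.43) and the anaerobic cell wall gene DAN1 (1.03) were the other calls. NCR1 turned sign, to -0.10, with the controls of all pesticides as 1 group. UPC2, the activator of ergosterol genes, had 765, 520.4 and 742 with carbofuran, against 458, 427 and 495 in the controls (log2 change 0.54, 95% interval 0.12 to 0.96, adjusted p = 0.0666) and ECM22, its paralogue, had 1017, 1168 and 1052 with carbofuran, against 1267, 1321 and 1259.9 in the controls (log2 change -0.25, 95% interval -0.42 to -0.08, adjusted p = 0.0503): both sets of groups were apart, in opposite directions, and neither passed. None of the 6 calls held in every fit that left out 1 array. Without carbofuran array 1 the list had 11 higher, beside 20.2% of all genes.

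Compared with the other 5 pesticides, 14 of the 15 genes from squalene onward had a higher change with carbofuran and none a lower one. Over all genes these shares were 18.5% and 22.9%. The exception among the 15 was ERG27 (difference 0.09, SE 0.05, adjusted p = 0.182). The medians of this list with the others lay in 0.01 to 0.25. ERG3 lay in -0.19 to 0.79 with them (difference 0.84, SE 0.12, adjusted p = 4.81e-06), and HES1 in -1.51 to 1.45 (difference 2.06, SE 0.26, adjusted p = 1.21e-06).

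Ribosome genes divided by kind and by array. Of 127 cytosolic ribosomal protein genes, 10 fell and none rose, beside 11.9% and 12.7% of all genes, and the median was -0.04, which ranged over -0.06 to 0.05 among the settings. Of the calls, 9 were under 1.5-fold, and 26 of the 127 genes rest on probe sets that can match a paralogue. Of 67 mitochondrial ribosomal protein genes, 18 fell and 1 rose (median -0.34, -0.44 to -0.18 over the settings). Of 81 ribosome biogenesis genes, 12 fell and 1 rose (median -0.41, -0.68 to -0.20 over the settings). Of 21 genes of RNA polymerases I and III, 6 fell and none rose. Their median was -0.34 and ranged over -0.41 to -0.03, being near 0 with the controls of all 6 pesticides as 1 group. Shares of genes called lower near the 11.9% over all genes, as for biogenesis, are no result about the members.

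These lists differed between the carbofuran arrays. The biogenesis medians were -0.03, -0.75 and -0.52 in carbofuran arrays 1, 2 and 3, against 0.06, -0.08 and 0.04 in the controls, so array 1 lay within the range of the controls. For mitochondrial ribosomal proteins they were -0.15, -0.35 and -0.49, against 0.04, -0.03 and 0.03 in the controls. Without array 1, the calls of lower genes numbered 42 of 81 for biogenesis, 40 of 67 for mitochondrial ribosomal proteins, 21 of 127 for cytosolic ribosomal proteins and 8 of 21 for the polymerases, beside 24.3% of all genes. None of the calls in the ribosome lists held in every fit that left out 1 array, beside 33 of the 646 lower calls over all genes. The cause of the difference of array 1 was not tested.

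RRP7, an assembly factor of the small subunit, gave 2635, 1564 and 1789 with carbofuran, against 5104, 4494 and 5187 in the controls (log2 change -1.34, 95% interval -1.86 to -0.82, adjusted p = 0.0168). RLP24, a factor of the large subunit, gave 6043, 3188 and 3809 with carbofuran, against 9894, 8387 and 9338 in the controls (log2 change -1.13, 95% interval -1.76 to -0.51, adjusted p = 0.0321). UTP9, of the small-subunit processome, gave 2786, 1582 and 1441 with carbofuran, against 4936, 3432 and 4368 in the controls (log2 change -1.18, 95% interval -1.91 to -0.45, adjusted p = 0.0409). In all 3, carbofuran array 1 lay between the other carbofuran arrays and the controls. RPA34 (-1.16) and RPA43 (-1.18), subunits of RNA polymerase I, and RPC34 (-0.88), of RNA polymerase III, had the same order. RPA34 gave 5114, 3346 and 3037 with carbofuran, against 9111, 7439 and 8593 in the controls. Among mitochondrial ribosomal proteins the lowest were MRPS28 (-1.04), MRP13 (-0.92) and RSM18 (-0.88), and MRPL4 was the one that rose (0.44). MRP13 gave 1626, 1349.7 and 1177 with carbofuran, against 2617, 2487 and 2697 in the controls (log2 change -0.92, 95% interval -1.24 to -0.60, adjusted p = 0.0139). UTP15 was the biogenesis gene that rose, by 0.28. IMP3 (-0.55) and RRN3 (-0.45), an initiation factor of RNA polymerase I, turned sign with the controls of all pesticides as 1 group, to 0.13 and 0.26. SFP1, an activator of ribosomal genes, rose, with 2419, 2219 and 2588 with carbofuran, against 1718, 1859 and 1720.3 in the controls (log2 change 0.45, 95% interval 0.26 to 0.64, adjusted p = 0.0208), a call lost when any 1 control was left out.

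**Figure D4:**
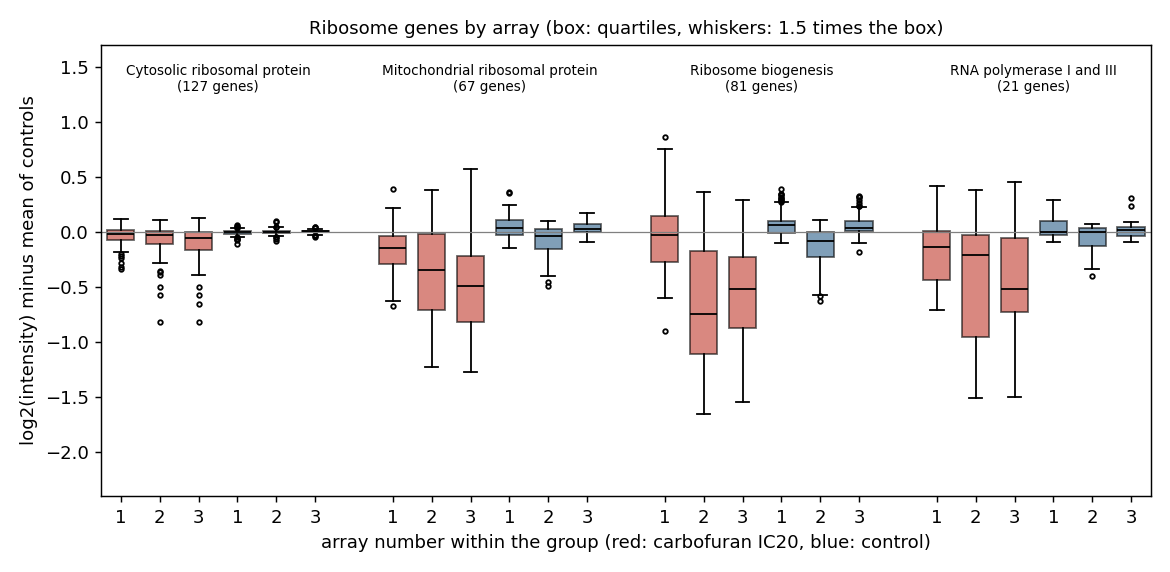
Log2 intensity minus the mean of the 3 controls for the members of 4 ribosome lists in each array, as boxes (quartiles, whiskers to 1.5 times the box, points beyond), carbofuran IC20 in red left of control in blue. Cytosolic ribosomal protein genes stay near 0 in all arrays, and the biogenesis medians are -0.03, -0.75 and -0.52 in carbofuran arrays 1, 2 and 3.

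Genes under the drug resistance factors Pdr1 and Pdr3 set carbofuran apart from the other 5 pesticides. Of 16 measured, 3 were higher and 5 lower with carbofuran against its control, beside 12.7% and 11.9% of all genes. The median was -0.01 (-0.07 to 0.15 over the settings). Without carbofuran array 1, 5 were higher and 6 lower, beside 20.2% and 24.3% of all genes. With the other pesticides the median of the list ranged from 0.55 to 1.63. In the test of that difference, 13 of 16 were lower with carbofuran and none higher, beside 22.9% and 18.5% of all genes. RSB1, a transporter or flippase for long-chain bases, was dim and gave 90.7, 108 and 103 with carbofuran, against 141, 151 and 164 in the controls (log2 change -0.60, 95% interval -0.83 to -0.37, adjusted p = 0.0169), while its change with the other pesticides lay in 3.28 to 5.40 (difference -5.15, SE 0.18, adjusted p = 4.21e-17). PDR5, the main multidrug ABC exporter, gave 6925, 7105 and 7662 with carbofuran, against 8456, 8699 and 9178 in the controls (log2 change -0.28, 95% interval -0.44 to -0.12, adjusted p = 0.0337), and its change with the others lay in 0.77 to 1.82 (difference -1.56, SE 0.09, adjusted p = 2.28e-12). SNQ2, another ABC exporter, gave 4087, 5268 and 4944 with carbofuran, against 4045, 4001 and 4311 in the controls (log2 change 0.20, 95% interval -0.07 to 0.47, adjusted p = 0.197), with overlapping groups, and lay in 0.99 to 1.54 with the others (difference -1.11, SE 0.09, adjusted p = 3.4e-10).

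PDR16, a phosphatidylinositol transfer protein, fell to 2809, 2401 and 2067 with carbofuran, against 4933, 4712 and 5020.5 in the controls (log2 change -1.02, 95% interval -1.32 to -0.72, adjusted p = 0.00958). TPO1, a polyamine exporter, gave 3774, 3844 and 4484 with carbofuran, against 6456, 6715 and 7093 in the controls (log2 change -0.75, 95% interval -0.96 to -0.53, adjusted p = 0.00934). YGR035C, of unknown function, gave 2654, 3301 and 2528 with carbofuran, against 6597, 6535 and 6856 in the controls (log2 change -1.25, 95% interval -1.53 to -0.97, adjusted p = 0.00425). All 3 were lower in every carbofuran array than in any control, and higher on average with the other pesticides (0.92 to 1.59 for PDR16, 0.03 to 0.87 for TPO1 and 0.98 to 3.87 for YGR035C). Groups did not overlap for 49.8% of all genes. YOR1, an ABC exporter, gave 2219.8, 2645 and 2562 with carbofuran, against 2693, 2530.1 and 2804 in the controls (log2 change -0.11, 95% interval -0.33 to 0.10, adjusted p = 0.347), with overlap. GRE2, a methylglyoxal reductase that stress factors also control, was the member with a large rise, to 5826, 6928 and 6444 with carbofuran, against 1811, 1925 and 1931 in the controls (log2 change 1.76, 95% interval 1.56 to 1.96, adjusted p = 0.00122), still less than the mean of the others (difference -0.72, SE 0.08, adjusted p = 5.23e-07). Of the 8 calls against its own control, 2 held when any 1 array was left out, those of GRE2 and YGR035C.

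**Figure D5:**
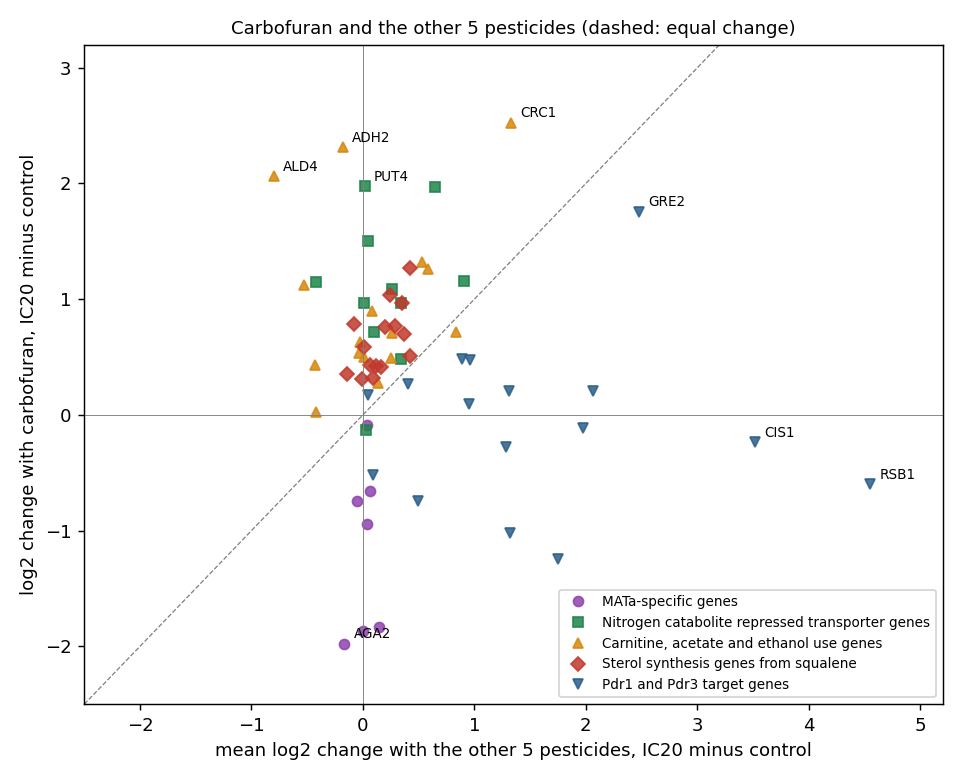
Log2 change with carbofuran (vertical axis) against the mean log2 change with the other 5 pesticides (horizontal axis), each against its own controls, for the members of 5 lists; the dashed line marks equal change. Most drug resistance genes (blue) lie right of the dashed line, with RSB1 (-0.60 with carbofuran and 4.55 with the others) farthest from it, while a-specific genes lie below 0 on the carbofuran axis and near 0 on the other.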

How the data were processed

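The 6 arrays were grouped by their labels. Per the submitters' processing notes, the deposited intensities were made by the authors with Affymetrix Expression Console; no version, genome build or normalization between arrays is given in the sources used here, and no coordinates are printed. Array data carry no read depth, so the number of arrays limits the precision. Of 5716 probe sets, 5498 were paired with 1 gene by the platform annotation and 218 with none. For 47 genes with several probe sets the one with the highest mean over 36 arrays was kept, and 12 symbols were updated, which left 5449 genes. The 120 genes on probe sets that can match paralogues (suffix _s_at or _x_at) were tested but not named.

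Intensities were raised to a floor of 32, taken to log2 and fitted with limma 3.58.1 in R 4.3.3: 1 mean per group over the 6 arrays (4 residual degrees of freedom), moderated two-sided test, Benjamini-Hochberg adjustment over 5449 genes, called under 0.05. Log2 changes are carbofuran minus control, with 95% intervals. The change with carbofuran minus the mean change with the other 5 pesticides was tested in a fit of all 36 arrays (24 residual degrees of freedom), each pesticide against its own 3 controls. The p-values of the 6-array fit measure the spread among these cultures. In the fit of all 36 arrays, 1 variance per gene was shared by 12 groups. Their residual SD ran from 0.1028 (S-metolachlor) to 0.3501 (MCPA-ME), with 0.2619 for carbofuran. The SEs and p-values of that contrast thus do not measure the spread of the carbofuran cultures alone, nor the spread among the other 5 pesticides.

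Genes were named from lists of pathway members and, by rule, as the 12 highest and 12 lowest called genes without overlap and the 5 highest and 5 lowest in the contrast with the other pesticides. Members and lists were chosen with earlier results of these data known, and no list was given a test of its own. The fits were also run on simulated data with known changes and independent noise for each gene and array. Such data hold no shift shared by many genes on an array, so this check does not cover the difference of carbofuran array 1. Alternatives were quantile normalization, median centring, other floors, removal of the dimmest 25% of genes, a replicate block, a trended robust prior, array weights, all 36 arrays in 1 fit, pooled controls, and leaving out each array. A search of promoters for motifs was not run.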

Additional observations from a re-analysis of the deposited data

Results flagged for a closer look

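The 10 genes below were picked out because their change with carbofuran differed most from the mean change with the other 5 pesticides, in either direction, by limma's contrast in the fit of all 36 arrays. On the higher side the log2 differences were 3.10 for CAR2, 2.86 for ALD4, 2.85 for HPF1, 2.49 for ADH2 and 2.21 for HSP12. HPF1 rose with carbofuran (2.29) and lay in -1.46 to -0.18 with the others, so the signs were opposite for each of them, as for CAR2. HSP12 had 2.98 with carbofuran and -0.42 to 1.46 with the others. On the lower side they were -5.15 for RSB1, -3.75 for CIS1, -2.997 for YGR035C, -2.34 for PDR16 and -2.09 for YOR1. CIS1, a gene of the same drug resistance list, gave 223, 260.3 and 261 with carbofuran, against 290.1, 293 and 290.2 in the controls (log2 change -0.24, 95% interval -0.43 to -0.04, adjusted p = 0.0722) and lay in 1.33 to 4.99 with the others. All 5 genes on the lower side belong to the Pdr1 and Pdr3 list.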

How the results depend on the processing

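Beside 690 genes higher and 646 lower, other settings gave 1336 and 1527 with array weights, 1005 and 1293 in the fit of all 36 arrays, and 1018 and 1368 with all 18 controls as 1 group. With these pooled controls, 428 of the 690 and 405 of the 646 were called again. The array weights gave control array 3 a weight of 9.22, against 0.243 to 0.955 for the other arrays. Median centring gave 982 and 641. A fold of at least 1.5 as well left 243 and 352 genes, and at least 2-fold 75 and 83. With 1 array left out at a time there were 79 to 1101 higher and 36 to 1324 lower. In an alternative chosen after seeing the data, the fit of all 36 arrays without carbofuran array 1, 1113 were higher and 1592 lower. The other settings stayed within 1.5 times the count. Against the other 5 pesticides the counts were 1007 and 1249, and 654 to 1134 and 891 to 1547 when single carbofuran arrays were left out. With all 18 controls as 1 group, 151 of 194 called genes of the lists and rules kept their call. Of the 194 genes, 192 kept it without carbofuran array 1, 186 with quantile normalization, 179 in the fit of 36 arrays, and 50 to 103 without any 1 of the other 5 arrays. Signs turned in 9 of them, with all 18 controls as 1 group and in no other setting run: ACO1 (-0.14), ICL1 (0.64), GZF3 (0.20), LYS1 (-0.070), LYS2 (-0.11), ARO1 (-0.069), NCR1 (-0.10), IMP3 (0.13) and RRN3 (0.26); the cause was not tested. With the replicate number as a block, 557 genes were higher and 571 lower, and 154 of the 194 kept their call. Same-numbered arrays deviated together with r of 0.447, 0.486 and 0.00101, and 2 of the 3 carbofuran arrays correlated as well or better with a control of another number, so the numbers were not taken as pairs. Intensities near the floor limit what can be said of dim genes, and 3 arrays a group limit the rest.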

Other observations

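General stress genes had calls in both directions. Of 26 genes under Msn2 and Msn4, 6 were higher and 4 lower (median 0.16, 0.02 to 0.36 over the settings), beside 12.7% and 11.9% of all genes. Without carbofuran array 1, 6 were higher and 5 lower, beside 20.2% and 24.3% of all genes. Of these calls, that of HSP12 held when any 1 array was left out. SPI1, a cell wall protein gene, gave 4031, 4009.9 and 5977 with carbofuran, against 1061, 2320.1 and 1856 in the controls (log2 change 1.47, 95% interval 0.63 to 2.31, adjusted p = 0.0344), and UBI4, the polyubiquitin gene, gave 6357, 5380.4 and 6471 with carbofuran, against 2782, 3528 and 3571 in the controls (log2 change 0.89, 95% interval 0.56 to 1.22, adjusted p = 0.0158). The heat shock genes HSP42 (-1.502), HSP78 (-0.72) and HSP104 (-0.72) fell. HSP104, the disaggregase, gave 2466, 1730.0 and 2291 with carbofuran, against 3258, 3313 and 4017 in the controls. The calls of SPI1 and HSP104 were lost without 5 of the arrays in turn, those of HSP42 and HSP78 without 4 and that of UBI4 without control array 3. Trehalose and glycogen genes had 3 higher and 1 lower of 16, beside 12.7% and 11.9% of all genes. GLG1, a glycogenin, fell (-1.41) while GLG2, its paralogue, rose (0.44), both lost without 5 of the arrays in turn. Among 22 oxidative stress genes under Yap1, 7 rose and 2 fell, beside 12.7% and 11.9% of all genes. Without carbofuran array 1, 8 were higher and 0 lower, beside 20.2% and 24.3%. GTT1, a glutathione transferase, gave 5185, 5397 and 5999 with carbofuran, against 2347, 2890.2 and 2381 in the controls (log2 change 1.13, 95% interval 0.86 to 1.40, adjusted p = 0.00516), and GTT2 rose by 0.71; these were the calls of that list that held when any 1 array was left out. Of 5 aryl-alcohol dehydrogenase genes, 1 rose, beside 12.7% of all genes. It was AAD6 (0.59), a call lost without 5 of the arrays in turn.

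Phosphate genes had 6 higher and none lower of 15, beside 12.7% and 11.9% of all genes. PHO89, the sodium phosphate cotransporter, gave 15426, 16188 and 15672 with carbofuran, against 6473, 7286 and 6207 in the controls (log2 change 1.25, 95% interval 1.06 to 1.43, adjusted p = 0.00176), the only call of the 6 that held when any 1 array was left out, and its change with the other pesticides lay in -1.43 to 1.35 (difference 1.30, SE 0.19, adjusted p = 7.97e-06). Of 20 cell wall genes, 2 rose and 1 fell, which is under the 12.7% and 11.9% of all genes and no result about the list; GSC2, a glucan synthase subunit, gave 6152, 6676 and 7015 with carbofuran, against 2788, 3203 and 2978 in the controls (log2 change 1.15, 95% interval 0.94 to 1.35, adjusted p = 0.00225). Glucose transporter and sensing genes had 4 higher and 2 lower of 16, beside 12.7% and 11.9% of all genes, so the share that fell is near the background. None of these calls held in every fit that left out 1 array. HXT4 was lost without control array 1 or 3, and HXT2 without control array 3. HXT4 gave 5489, 6501 and 6549.6 with carbofuran, against 9958, 9649.7 and 10032 in the controls (log2 change -0.68, 95% interval -0.89 to -0.47, adjusted p = 0.0109) and HXT2, in the other direction, 23947, 23750.2 and 24159.6 with carbofuran, against 17999, 18195 and 18231 in the controls (log2 change 0.40, 95% interval 0.30 to 0.51, adjusted p = 0.00671). Proteasome genes had 2 higher and 5 lower of 33, shares under or near those of all genes, and 3 higher and 20 lower without carbofuran array 1, beside 20.2% and 24.3% of all genes. NAD synthesis had BNA1 at 4302, 3853 and 3708 with carbofuran, against 6637, 7422 and 7281 in the controls (log2 change -0.85, 95% interval -1.05 to -0.64, adjusted p = 0.00516). Of the 10 genes of that list 1 was higher and 3 were lower, beside 12.7% and 11.9% of all genes. Of 20 meiosis genes, which haploid cells do not need, 4 fell and 1 rose, all dim, beside 11.9% and 12.7% of all genes. SPO11 gave 67.6, 75.1 and 67.9 with carbofuran, against 137, 153 and 152 in the controls (log2 change -1.07, 95% interval -1.25 to -0.88, adjusted p = 0.0022).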
